A study of Homo sapiens with 30 samples.

Results

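Human small airway epithelial (SAE) cells, which line the finest conducting airways, were exposed to titanium dioxide nanobelts (TiO2-NB), flat ribbon-shaped particles of the mineral, and the higher dose, 100 ug/ml, was compared with the lower, 10 ug/ml, after 24 h. The comparison rests on 6 of the 30 arrays of the study, chosen by their titles: 3 of cells given 100 ug/ml and 3 of cells given 10 ug/ml. It covers 11963 genes, each represented by 1 probe set of an Affymetrix expression array. The cells came from a commercial supplier and grew in the supplier's airway medium, and particles were put straight into the medium. Also used were the 3 untreated arrays (0 ug/ml) of 24 h, the 6 arrays of both TiO2-NB doses at 1 h, and the 6 arrays of multi-walled carbon nanotubes (MWCNT) at both doses at 24 h. Every group held 3 biological replicates. The labels do not say how many donors the cells came from or whether replicates were separate cultures, so p-values measure the spread between these arrays, which may be technical in part.

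Much of what follows concerns the ERK cascade, in which an activated surface receptor passes its signal through RAS, RAF and MEK to the kinase ERK. ERK switches on genes of transcription factors (FOS, JUN, the ETV family) and also genes of its own brakes: DUSP phosphatases, which take the activating phosphates off the kinases, and the Sprouty and SPRED proteins, which act upstream at RAS and RAF. In airway epithelium the cascade lies below the EGF receptor and takes part in wound closure and in responses to inhaled particles. The other side of the comparison concerns KRT8 and KRT18, the keratin pair that forms the intermediate filaments of simple epithelia.

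Values are log2 expression levels as deposited, and a difference between groups is a difference of mean log2 levels with its standard error (SE). A gene is called higher or lower where the adjusted p of limma is under 0.05. With 3 arrays a side, the smallest two-sided p of an exact permutation test on 1 gene is 0.1, and the calls therefore rest on the spread that limma estimated over all 10 groups. Array medians lay between 7.15 and 7.21, and the 6 compared arrays deviated from their group means by 0.0777 to 0.0977 (root mean square over genes), against 0.1369 for the most deviant array of the study's 24 h arrays, control replicate 1. In whole cultures, fewer cells of a type and less RNA per cell cannot be told apart. Of 5 epithelial markers 3 lay above the median of the table (7.18): KRT8, KRT18 and CDH1. EPCAM (6.65 at 10 and 6.76 at 100 ug/ml) and KRT19 (5.69 and 5.38) lay below it, as did the basal keratins KRT14 (4.10 and 3.86) and KRT15 (5.00 and 4.92), while KRT5 stood at 7.33 and 7.13. The basal integrins ITGA6 (9.09 and 9.04) and ITGB4 (9.50 and 9.41) lay well above it, which made 3 of 6 basal markers. No secretory marker of 3 measured and no ciliated marker of 4 lay above the median, so the labelled cell type showed in part of its defining markers only. Endothelial markers were above it in 0 of 4, fibroblast markers in 2 of 6, alveolar markers in 2 of 4 and immune markers in 1 of 3. Summed over the list, the epithelial markers ran from 44.24 to 44.6 at 10 and from 42.69 to 43.6 at 100 ug/ml, with KRT8 and KRT18 the 2 called, and the basal markers from 41.7 to 41.98 and from 41.06 to 41.3, with none called. Both sums were lower at 100 ug/ml without overlap. The immune markers ran from 17.27 to 17.63 at 10 and from 17.34 to 17.77 at 100 ug/ml, the fibroblast markers from 33.97 to 34.52 and from 34.52 to 34.81, and no marker of either list was called. The sums of the secretory, ciliated, alveolar and endothelial markers overlapped between the doses. The part of other cell types in the results was not tested.

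At 100 ug/ml, 80 genes were higher and 38 lower than at 10 ug/ml, 118 in all or 0.986% of those tested. Genes that carry or brake the ERK signal, led by IER3 and ETV5, and AP-1 subunits stood among the higher genes, and KRT8, KRT18, the gap junction gene GJA1 and the water channel gene AQP3 among the lower. Differences were small: 16 of the higher genes and 2 of the lower, KRT8 and the dim ADH1B (-0.68, named after its value was seen), passed 1.5-fold, and the median over all genes was -0.01. The 3 and 3 arrays did not overlap in all 80 higher genes and in 37 of the 38 lower (all but TMEM158), beside 7.24% of all genes that stood apart upwards and 9.38% that stood apart downwards. The calls rest on the difference between these same arrays, so the lack of overlap is no separate evidence for them. Just inside the threshold lay HMGB3 (0.17, adjusted p = 0.0496) and just outside it QPCT (0.58, adjusted p = 0.051). The count depended on single arrays: it was 77 without replicate 1 and 75 without replicate 3 of 10 ug/ml, and 75 without replicate 1 and 68 without replicate 2 of 100 ug/ml. With only the 6 compared arrays in the fit, 25 genes were higher and 5 lower.

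**Figure D1:**
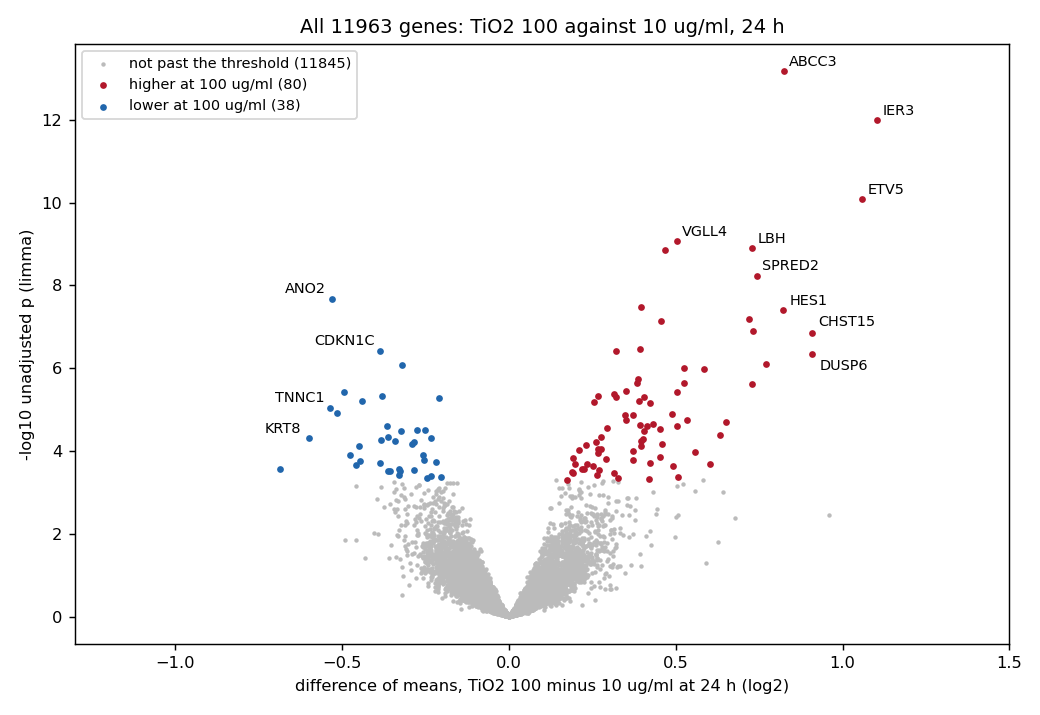
Each point is 1 of 11963 genes: the x axis is the difference of means, 100 minus 10 ug/ml TiO2-NB at 24 h (log2), the y axis the -log10 of limma's unadjusted p, red the 80 higher and blue the 38 lower genes. IER3 and ETV5 lie farthest to the right, ABCC3 highest, and the higher genes reach larger differences than the lower.

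Of the 19 measured members of a list of ERK-induced genes and feedback inhibitors, 9 were higher at 100 ug/ml and none was lower. Their share, 47.4%, stands beside 0.669% of all genes called higher, and the list's median difference was 0.37 beside -0.01 over all genes. 18 of the 19 differences were above 0, beside 47.1% of all genes. The arrays of the doses stood apart upwards in 15 of 19 members, beside 7.24% of all genes. The count of called members ran from 7 (without replicate 1 of 100 ug/ml) to 10 when 1 array was left out. This list and the others below were written with earlier results of these data known. Calls, medians, signs and lack of overlap come from the same arrays, so they are not separate evidence for a list.

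IER3, an early response gene that growth factors and stress switch on and that acts on ERK and NF-kB signalling, had the largest difference of all called genes. Its levels were 7.50, 7.59 and 7.44 at 10 ug/ml and 8.80, 8.61 and 8.43 at 100 ug/ml, a difference of 1.10 ± 0.08 (SE, n = 3 each, adjusted p = 6.02e-09) or 2.15-fold. The lowest array at the high dose lay well above the highest at the low dose. ETV5, an ETS transcription factor downstream of ERK, stood at 6.16, 6.33 and 6.33 and at 7.43, 7.29 and 7.27, a difference of 1.06 ± 0.10 (adjusted p = 3.3e-07). At 10 ug/ml this probe set was itself below the median of the table. A further pair of ETV5 probe sets, also below it, differed by 0.07 and 0.19, and the mean of all ETV5 probe sets differed by 0.44, which was still called. The 3 untreated cultures (6.19, 6.13 and 6.12) lay close to the low dose.

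The brakes of the cascade followed. DUSP6, the cytoplasmic phosphatase specific to ERK, measured 5.82, 5.79 and 5.82 at 10 ug/ml and 6.94, 6.74 and 6.47 at 100 ug/ml (0.91 ± 0.13, adjusted p = 0.000305), levels below the median of the table. SPRED2, which holds back RAF activation, measured 8.09, 8.35 and 8.06 and then 8.96, 8.84 and 8.92 (0.74 ± 0.08, adjusted p = 1e-05). Its dim probe sets differed by 0.05 and 0.01. SPRY2, a Sprouty inhibitor of receptor signalling, measured 7.47, 7.83 and 7.59 and then 8.23, 8.18 and 8.05 (0.53 ± 0.09, adjusted p = 0.0011). In all 3 genes every array of the high dose exceeded every array of the low dose. DUSP4, DUSP1 and DUSP5, nuclear phosphatases of the same family, are named here after their values were seen. They differed by 0.46 ± 0.10, 0.39 ± 0.06 and 0.37 ± 0.08, with adjusted p values of 0.0117, 0.000954 and 0.0155. A second probe set above the median of the table differed by 0.50 for DUSP4 and by only 0.13 for DUSP1. EPHA2, a receptor tyrosine kinase for ephrins, rose from 7.73, 7.90 and 7.82 to 8.27, 8.35 and 8.29 (0.49 ± 0.09, adjusted p = 0.00361).

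The other members of the list gave no call. PHLDA1 differed by 0.52 (adjusted p = 0.0559), CCND1 by 0.31, LIF by 0.30, SPRY4 by 0.26 and SPRY1 by 0.17, and the only difference below 0 was that of EPHA4, -0.07. The 9 measured genes of the EGF receptor family and its ligands, which feed the cascade from above, gave no call either. Their median was -0.07, EGFR itself differed by -0.14 (adjusted p = 0.93), and the largest difference, that of the ligand gene EREG, was 0.41 (adjusted p = 0.283).

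**Figure D2:**
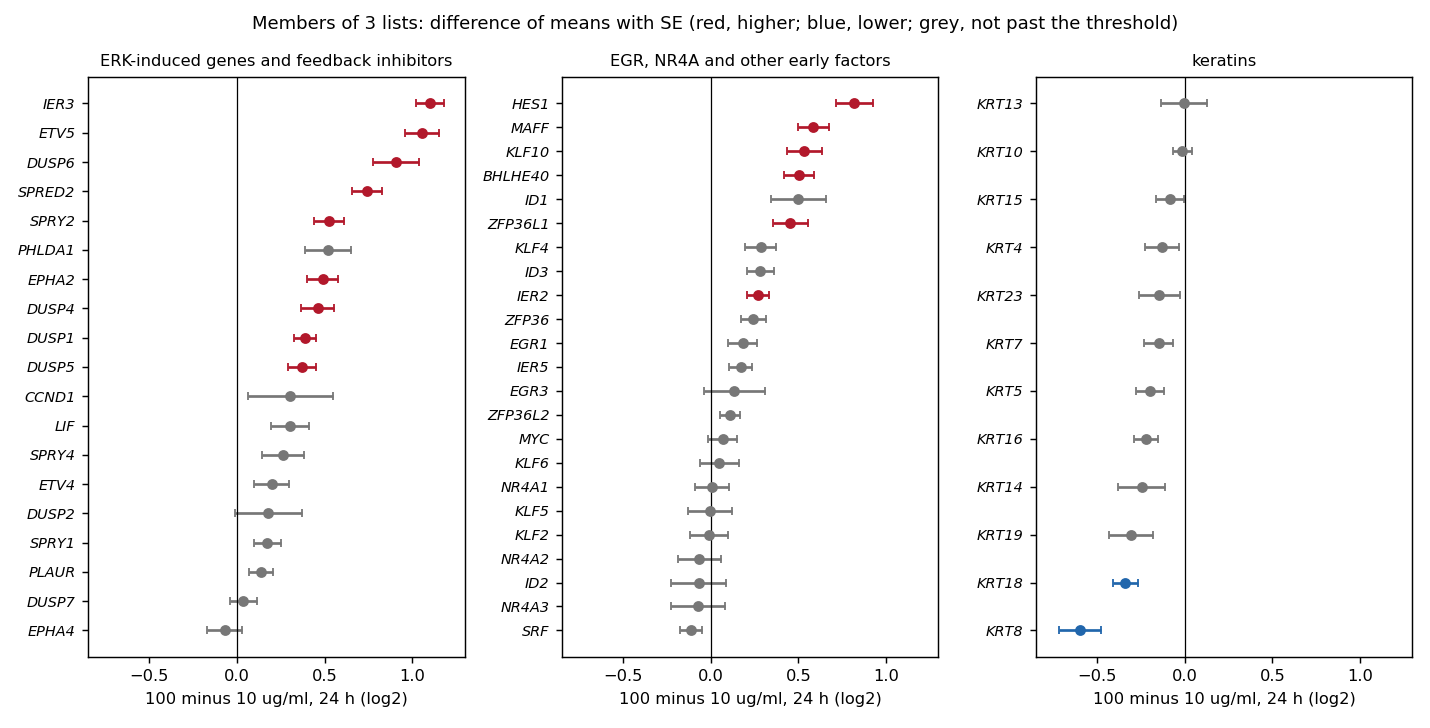
Difference of means, 100 minus 10 ug/ml TiO2-NB at 24 h (log2, x axis), with its SE for every measured member of 3 lists (y axis); red, called higher; blue, called lower; grey, not called. The 9 called ERK genes fill the upper part of the left panel, 6 early factors that of the middle panel, and KRT8 and KRT18 are the 2 called keratins.

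Promoter windows of RefSeq, 250 bases before to 50 bases after the start of a gene in GRCh38.p14, were at hand for 61 of the 80 higher genes, 27 of the 38 lower and 9563 of all 11963. Where a gene had more than 1 window (5191 symbols of the full set), only the first listed was searched. Motifs at other starts would be missed. The full cyclic AMP response element, TGACGTCA, which reads the same on both strands, was found in 3 of the 61 (4.92%), in 0 of the 27 and in 293 of all windows (3.06%). The carriers among the higher genes were DUSP1, EPHA2 and MAFF, whose windows are shown because the genes belong to the groups described here. Capitals mark the element, and each window runs 5′ to 3′ on the strand of its gene: DUSP1 at chr5:172771146-172771445 (minus strand), EPHA2 at chr1:16156020-16156319 (minus strand) and MAFF at chr22:38201744-38202043 (plus strand).
DUSP1: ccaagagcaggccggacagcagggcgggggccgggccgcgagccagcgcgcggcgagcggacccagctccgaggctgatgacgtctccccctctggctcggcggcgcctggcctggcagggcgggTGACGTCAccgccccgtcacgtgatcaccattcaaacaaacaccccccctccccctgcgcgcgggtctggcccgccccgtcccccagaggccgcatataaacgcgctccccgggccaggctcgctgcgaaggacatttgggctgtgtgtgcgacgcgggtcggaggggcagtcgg
EPHA2: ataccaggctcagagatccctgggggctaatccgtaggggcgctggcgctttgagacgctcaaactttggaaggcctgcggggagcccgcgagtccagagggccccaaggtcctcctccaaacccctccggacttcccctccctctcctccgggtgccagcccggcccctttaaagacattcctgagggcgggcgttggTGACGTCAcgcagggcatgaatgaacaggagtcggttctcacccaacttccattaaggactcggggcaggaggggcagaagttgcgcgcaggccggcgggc
MAFF: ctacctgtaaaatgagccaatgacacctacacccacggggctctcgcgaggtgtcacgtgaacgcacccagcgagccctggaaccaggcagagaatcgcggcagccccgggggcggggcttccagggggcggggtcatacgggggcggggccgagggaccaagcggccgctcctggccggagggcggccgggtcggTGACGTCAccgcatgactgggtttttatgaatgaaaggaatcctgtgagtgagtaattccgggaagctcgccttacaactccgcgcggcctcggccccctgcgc
The element begins at base 126 of the window in DUSP1, 200 in EPHA2 and 197 in MAFF. The AP-1 motif TGANTCA, searched on both strands, was in 3.28% of the higher genes' windows, 7.41% of the lower genes' and 5.43% of all. The ETS motif CCGGAAG, searched on both strands, was in 9.84%, 14.8% and 15.2%. These are matches of letters and not sites of binding, and the shares lay near those of all windows.

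Subunits of AP-1, the factor that FOS and JUN proteins form as pairs, were higher in 3 of 9 measured cases, beside 0.669% of all genes, with a list median of 0.16 beside -0.01 over all genes. JUNB measured 6.33, 6.27 and 6.25 at 10 ug/ml and 7.03, 7.08 and 6.93 at 100 ug/ml, a difference of 0.73 ± 0.12 (adjusted p = 0.00111). JUN measured 9.59, 9.80 and 9.66 and then 10.30, 10.26 and 10.15, a difference of 0.56 ± 0.12 (adjusted p = 0.0161). FOS measured between 5.92 and 6.12 and then 6.63, 6.51 and 6.38, a difference of 0.49 ± 0.11 (adjusted p = 0.029). The doses did not overlap in any of the 3 genes. JUNB and FOS lay below the median of the table at both doses. Other probe sets of JUN above the median of the table differed by 0.53 and 0.19. ATF3 differed by 0.22, FOSL1 by 0.03 and FOSB by -0.30, none of them called. The count fell to 1, leaving JUNB, without replicate 1 of 10 ug/ml or without replicate 1 or 2 of 100 ug/ml. JUN had adjusted p up to 0.112 and FOS up to 0.176 over the 6 fits with 1 array left out.

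Other early transcription factors and RNA-binding regulators were higher in 6 of 23 measured cases and lower in none (median 0.17), beside 0.669% and 0.318% of all genes and a median of -0.01. HES1, a repressor that Notch signals switch on, measured 5.74, 5.98 and 5.86 at 10 ug/ml and 6.63, 6.59 and 6.81 at 100 ug/ml, a difference of 0.82 ± 0.10 (adjusted p = 4.81e-05). These HES1 levels were below the median of the table. MAFF, a small MAF factor that pairs with NRF2 and its relatives, measured 8.40, 8.44 and 8.27 and then 8.99, 9.03 and 8.85, a difference of 0.59 ± 0.09 (adjusted p = 0.000567). A second MAFF probe set above the median of the table differed by only 0.19. KLF10, which TGF-beta induces, differed by 0.53 ± 0.10 and BHLHE40, a repressor tied to the clock and to hypoxia, by 0.50 ± 0.08 (adjusted p = 0.00475 and 0.00155). ZFP36L1, which speeds the decay of AU-rich messages, differed by 0.45 ± 0.10 and IER2 by 0.27 ± 0.06 (adjusted p = 0.0202 and 0.0328). The classic members of the list were not called: EGR1 differed by 0.18, EGR3 by 0.13, NR4A1 by 0.01 and MYC by 0.07. With 1 array left out the count ran from 3 (without replicate 1 of 10 ug/ml) to 7. IER2 lost its call in each of those 6 fits, ZFP36L1 without replicate 1 of either dose and KLF10 without replicate 1 of 10 ug/ml, with adjusted p up to 0.125, 0.198 and 0.0587. ZFP36L1 also lost the call with the mean of all probe sets, and its dim probe sets differed by 0.09, 0.14 and -0.05.

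**Figure D3:**
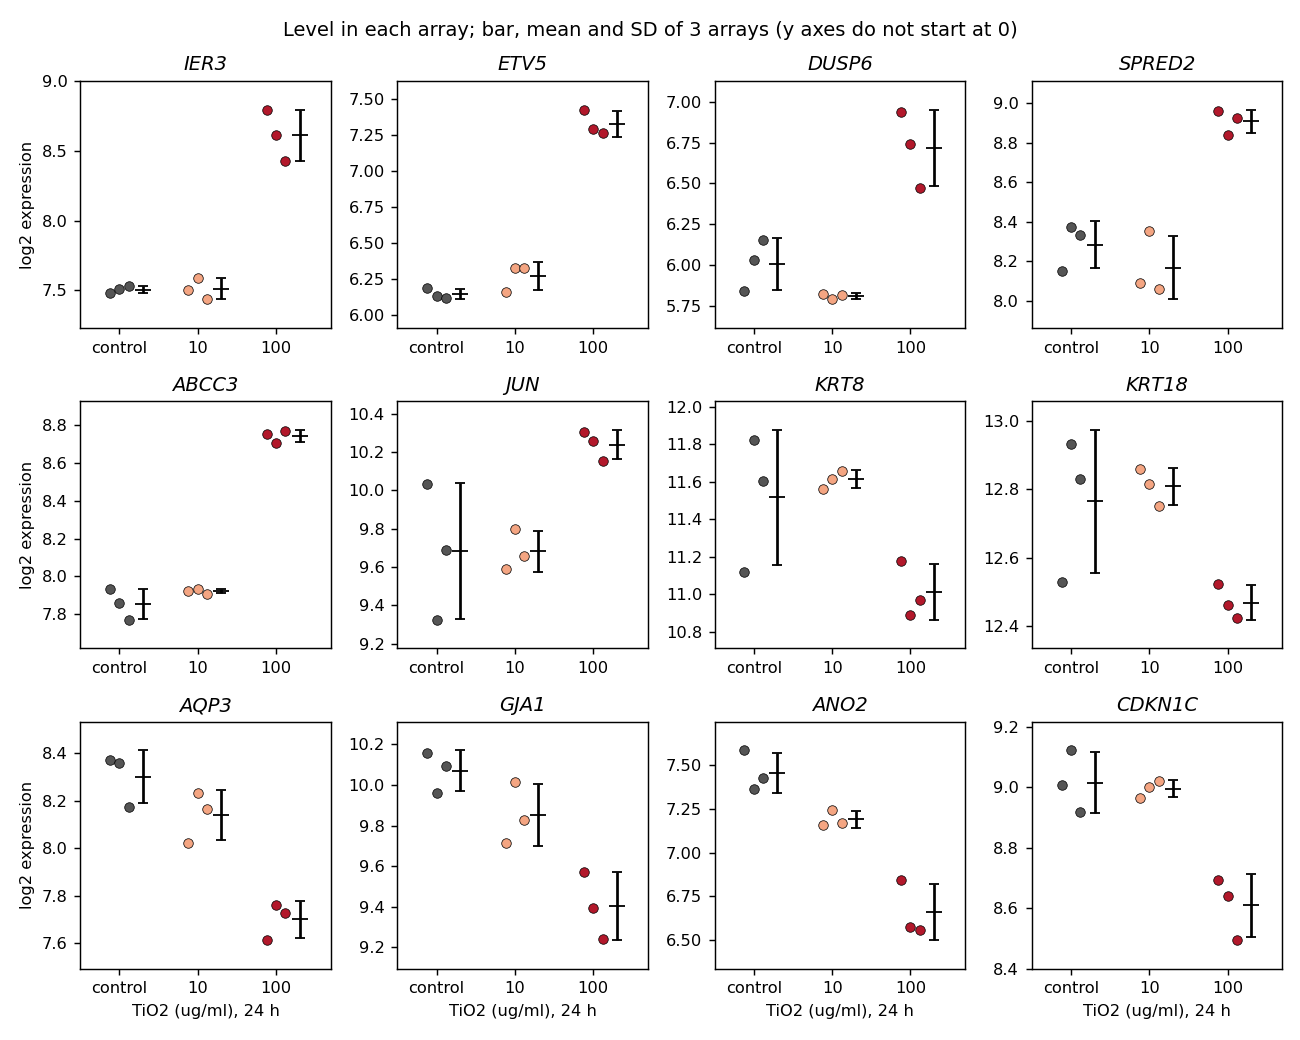
Log2 level of 12 genes (y axis, which does not start at 0) in each of 3 arrays of control, 10 ug/ml and 100 ug/ml TiO2-NB at 24 h (x axis); the bar beside the points is the mean with the SD of 3 arrays. In all 12 genes the 3 arrays at 100 ug/ml lie apart from the 3 at 10 ug/ml, while control arrays of KRT8, KRT18 and JUN are widely spread.

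Outside these families, ABCC3, an export pump for conjugated organic anions and drugs, had the smallest p of all genes. Its levels were 7.92, 7.93 and 7.91 at 10 ug/ml and 8.75, 8.71 and 8.77 at 100 ug/ml, a difference of 0.82 ± 0.05 (adjusted p = 7.99e-10), and a second bright probe set differed by 0.61. It was the 1 called gene among 18 ABC transporters, beside 0.669% of all genes called higher. CHST15, a sulfotransferase that modifies chondroitin sulfate, rose from 6.85, 7.43 and 7.24 to 8.19, 8.14 and 7.92 (0.91 ± 0.12, adjusted p = 0.00012). The secreted chitinase-like glycoprotein CHI3L1 rose from 6.67, 6.73 and 6.67 to 7.53, 7.38 and 7.35 (0.73 ± 0.10, adjusted p = 0.000113). LBH, a cofactor of transcription, rose from 7.96, 8.47 and 8.35 to 9.03, 8.98 and 8.95 (0.73 ± 0.08). The pseudokinase TRIB2 rose from 6.61, 7.02 and 6.75 to 7.53, 7.54 and 7.46 (0.72 ± 0.09). In LBH, CHST15 and TRIB2 replicate 1 of 10 ug/ml was the lowest of the 3, and the differences without it were smaller but still called. LBH and CHST15 lost the call with only the compared groups in the limma fit (adjusted p = 0.0826 and 0.0729). At the membrane, TM4SF1, a tetraspanin-like protein, differed by 0.65 ± 0.12, and NRP1, a coreceptor for semaphorins and VEGF, by 0.63 ± 0.13 (adjusted p = 0.00501 and 0.00819). BIK, a cell death protein of the BCL2 family, rose from 7.50, 7.47 and 7.35 to 7.91, 8.05 and 7.95 (0.53 ± 0.08, adjusted p = 0.000551). TM4SF1 and NRP1 lost the call without replicate 1 of 100 ug/ml, and NRP1 also without replicate 1 of 10 ug/ml (adjusted p up to 0.0632 and 0.0945). With the mean of all probe sets NRP1 lost the call as well, and its dim probe sets differed by 0.18 and -0.16.

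Genes of the matrix and its receptors were called singly, and the counts below stand beside 0.669% of all genes called higher. TGFBI, a matrix protein that TGF-beta induces, rose from 9.18, 9.32 and 9.24 to 9.72, 9.75 and 9.67 (0.47 ± 0.05, adjusted p = 2.86e-06), and TGFBR2, the type of TGF-beta receptor that binds the ligand, differed by 0.26 ± 0.05 (adjusted p = 0.0106). These were 2 of 22 genes of that list, whose median was 0.11. CCN2, a matricellular protein and YAP target, was the 1 called gene of 24 in its list (0.42 ± 0.07, adjusted p = 0.00218), the integrin subunit ITGB5 1 of 10 (0.39 ± 0.06, adjusted p = 0.000269) and TFPI, the inhibitor of the tissue factor pathway, 1 of 9 (0.40 ± 0.08, adjusted p = 0.00695). The aryl hydrocarbon receptor target TIPARP was 1 of 8 (0.43 ± 0.08, adjusted p = 0.00542) and the death receptor FAS, a p53 target, 1 of 17 (0.26 ± 0.06, adjusted p = 0.0404). In the lists of CCN2, TFPI and TIPARP the largest differences, 0.64, 0.50 and 0.63, belonged to genes that were not called. With 1 array left out, TGFBR2, TFPI and FAS reached adjusted p of 0.106, 0.0781 and 0.235, each without replicate 1 of 100 ug/ml. TGFBR2 also lost the call with the mean of all probe sets, and its dim probe set differed by -0.003.

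Chemokines that draw neutrophils and monocytes gave no call among 10 measured. All 10 differences were above 0, beside 47.1% of all genes, and the arrays stood apart in 7, beside 7.24% of all genes that stood apart upwards. Against control, however, the list's median was -0.26 at 10 and only 0.06 at 100 ug/ml. Most of the gap between the doses thus lay in levels below control at 10 ug/ml. CXCL8, which encodes interleukin 8, averaged 5.83 ± 0.17 at 10 ug/ml (SD, n = 3) and measured 6.88, 6.85 and 6.64 at 100 ug/ml, a difference of 0.96 ± 0.30 (adjusted p = 0.155). Its 3 untreated arrays read 7.16, 5.75 and 5.65, control replicate 1 above all arrays of the high dose. CXCL1 differed by 0.68 (adjusted p = 0.165) and CXCL2 by 0.39 (adjusted p = 0.395). Antioxidant genes under NRF2 gave 0 calls of 19 (median 0.02): HMOX1 differed by -0.03, NQO1 by 0.18 and GCLM by 0.11. NFE2L2, the gene of NRF2 itself, measured 11.04, 11.17 and 11.13 and then 11.46, 11.40 and 11.33 and just missed the threshold (0.28 ± 0.07, adjusted p = 0.0517). Across all 43 lists, 23 had no called member, 11 had members called higher only, 8 lower only and 1, growth arrest and Notch targets, both. The lists held 26 of the 80 higher genes and 10 of the 38 lower. Among the lists with no call were metallothioneins, heat shock and endoplasmic reticulum chaperones, interferon-stimulated genes, mitosis, DNA replication, oxidative phosphorylation and lysosomal genes.

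**Figure D4:**
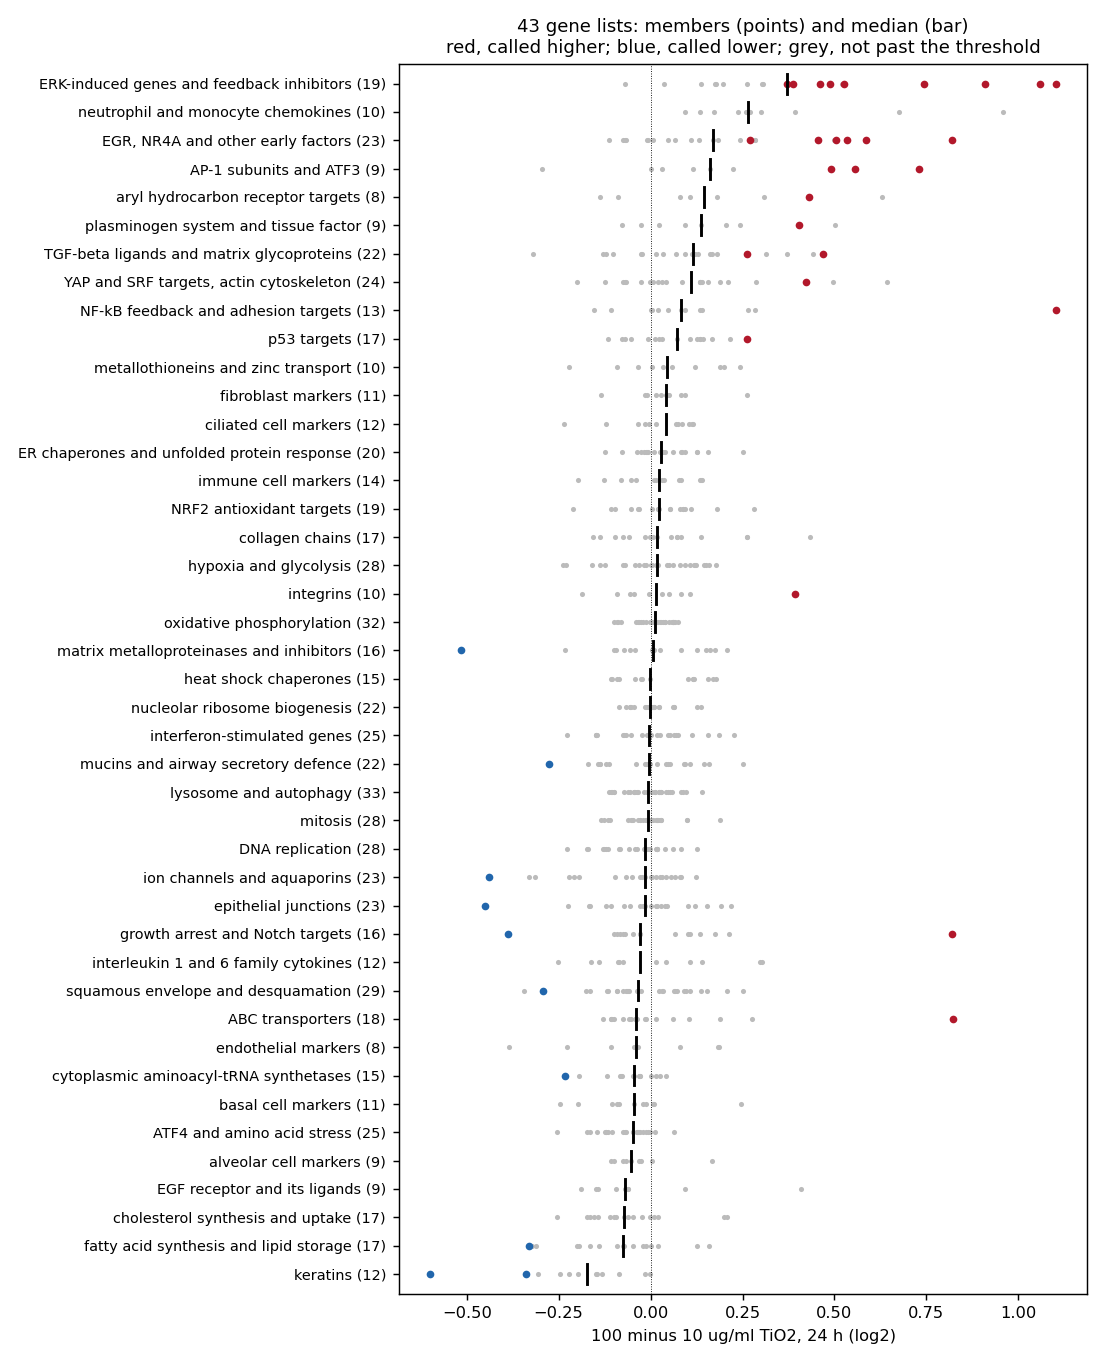
For each of 43 gene lists (y axis, number of measured members in brackets), points are the members' differences of means, 100 minus 10 ug/ml TiO2-NB at 24 h (log2, x axis), and the black bar is the list's median; red, called higher; blue, called lower; grey, not called. The ERK list has the highest median, 0.37, and keratins the lowest, -0.17.

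Among the lower genes above the median of the table, a keratin gene had the largest difference. KRT8 measured 11.56, 11.62 and 11.66 at 10 ug/ml and 11.18, 10.89 and 10.97 at 100 ug/ml, a difference of -0.60 ± 0.12 (adjusted p = 0.00946), or 1.52-fold lower at the high dose. Its partner KRT18 measured 12.86, 12.81 and 12.75 and then 12.52, 12.46 and 12.42, a difference of -0.34 ± 0.07 (adjusted p = 0.0103). The doses did not overlap in either gene. They were the 2 called genes of 12 measured keratins, or 16.7%, beside 0.318% of all genes called lower. The epithelial marker sum given above holds KRT8, KRT18 and KRT19 themselves, and the basal sum holds KRT5, KRT14 and KRT15. Neither sum is therefore a separate observation. Of the other epithelial markers, CDH1 differed by -0.02 and EPCAM by 0.11, and of the other basal markers ITGA6 differed by -0.05, ITGB4 by -0.09 and NGFR by -0.02. The part of cell types in the result was not tested. All 12 keratin differences were below 0, with a median of -0.17, although KRT13 differed by less than 0.01. Of all genes, 47.1% had a difference above 0. The uncalled keratins included KRT19 at -0.31 and KRT14 at -0.25, both dim. Leaving out replicate 3 of 10 ug/ml or replicate 2 of 100 ug/ml ended the call of KRT8 (adjusted p up to 0.0805), and leaving out replicate 1 of 10 ug/ml or replicate 2 or 3 of 100 ug/ml ended that of KRT18 (up to 0.0753). The untreated arrays of KRT8 read 11.12, 11.82 and 11.60, with control replicate 1 near the high dose.

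Channels and junctions were represented by a few genes, and the counts of their lists stand beside 0.318% of all genes called lower. ANO2, a calcium-activated chloride channel, fell from 7.16, 7.24 and 7.17 to 6.84, 6.57 and 6.56 (-0.53 ± 0.06, adjusted p = 3.16e-05), the smallest p among the lower genes. ANO2 lost the call with only the compared groups in the limma fit (adjusted p = 0.0729). BEST2, a chloride channel of another family, was named after its values were seen and fell from 6.97, 7.05 and 7.01 to 6.60, 6.48 and 6.47 (-0.49 ± 0.08, adjusted p = 0.00155), levels below the median of the table. AQP3, a channel for water and glycerol, fell from 8.02, 8.23 and 8.16 to 7.61, 7.76 and 7.73 (-0.44 ± 0.08, adjusted p = 0.00202), while its other bright probe sets differed by -0.13 and -0.19. AQP3 was the 1 called gene of the 23 measured in the list of ion channels and aquaporins. That list did not hold ANO2, BEST2 or CACNA2D3. GJA1, the connexin of many gap junctions, fell from 9.71, 10.01 and 9.83 to 9.57, 9.39 and 9.24 (-0.45 ± 0.09, adjusted p = 0.0123) and was the 1 called gene of 23 junction genes, of which CDH1 differed by -0.02 and TJP1 by 0.03. The margin between its doses was narrow, 9.71 against 9.57, and the call was lost in 3 of the 6 fits with 1 array left out (adjusted p up to 0.0937). CACNA2D3, an auxiliary subunit of calcium channels, fell by 0.45 (adjusted p = 0.0232) and lost the call in 4 of those fits (adjusted p up to 0.104).

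Single genes of other lists were lower too, again beside 0.318% of all genes. CDKN1C, an inhibitor of cyclin-dependent kinases, fell from levels between 8.97 and 9.02 to 8.69, 8.64 and 8.49 (-0.39 ± 0.06, adjusted p = 0.000269), and its other probe sets above the median of the table differed by -0.24, -0.30 and -0.42. PPL, periplakin of the cornified envelope, fell from 10.60, 10.66 and 10.61 to 10.41, 10.23 and 10.35 (-0.29 ± 0.06, adjusted p = 0.0117), the 1 call among 29 squamous genes. The lowest difference of that list, -0.34, was not called. The membrane mucin MUC1 fell from 8.03, 8.17 and 8.03 to 7.89, 7.69 and 7.82 (-0.28 ± 0.05, adjusted p = 0.00675), the 1 call among 22 secretory genes. Both lost the call without replicate 2 of either dose (adjusted p up to 0.121 and 0.0846). MMP28, a metalloproteinase of epithelia, was dim and fell from 5.83, 5.68 and 5.77 to 5.29, 5.49 and 4.95 (-0.52 ± 0.09, adjusted p = 0.0036).

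The other lower genes with large differences had varied roles. TNNC1, troponin C of slow and cardiac muscle, fell from 7.23, 7.43 and 7.36 to 6.90, 6.89 and 6.61 (-0.54 ± 0.10, adjusted p = 0.00269). EPHB6, a receptor for ephrins without kinase activity, fell by 0.48 and PRODH, which starts the breakdown of proline in mitochondria, by 0.46 (adjusted p = 0.018 and 0.028). The circadian factor DBP fell by 0.38, PPP1R16B, a regulatory subunit of protein phosphatase 1, by 0.38 and GFOD1 by 0.37. SPTAN1, the alpha chain of spectrin, fell by 0.36 and PEG10, an imprinted gene derived from a retrotransposon, by 0.36 (both adjusted p = 0.035). WARS1, the tRNA synthetase for tryptophan, fell by 0.23 and the desaturase FADS2 by 0.33 (adjusted p = 0.00946 and 0.0404). Several of these calls were fragile: EPHB6 lost it in all 6 fits with 1 array left out, SPTAN1 and FADS2 in 5, PRODH and PEG10 in 4, DBP and WARS1 in 3 and GFOD1 in 1, with adjusted p up to 0.0853, 0.223, 0.225, 0.203, 0.217, 0.0611, 0.0964 and 0.0553. SPTAN1 and WARS1 also lost the call with the mean of all probe sets.

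The 3 untreated arrays of 24 h place the doses. These comparisons share arrays with the comparison of the doses, so the values stand side by side and no agreement between them is read. Against control, 1577 genes (13.2%) were called at 100 ug/ml and 724 (6.05%) at 10 ug/ml, and neither count was stable: with cyclic loess scaling they were 815 and 159. Without control replicate 1, the most deviant array, they were 876 and 74. At 10 ug/ml the count was also 243 without replicate 1 and 82 without replicate 3 of that dose, and at 100 ug/ml 884 without replicate 1 and 718 without replicate 3. The split at 100 ug/ml was 514 higher (4.3%) and 1063 lower (8.89%) as deposited and 449 and 366 with cyclic loess. At 10 ug/ml it was 305 (2.55%) and 419 (3.5%), and 103 and 56. Over the 80 genes higher at 100 than at 10 ug/ml, the median difference from control was 0.33 at 100 and -0.08 at 10 ug/ml. The mean at 10 ug/ml lay below control in 56 of them and above it in 24. Of the 80, 64 were called higher than control at 100 ug/ml, while at 10 ug/ml 0 were called higher and 4 lower. Over the 38 lower genes, the median difference from control was -0.34 at 100 and -0.01 at 10 ug/ml, and 35 were called lower than control at 100 ug/ml. At 10 ug/ml the mean lay below control in 21 of the 38 and above it in 17, with ANO2 and MMP28 called lower and CD160 and RECQL5 called higher.

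Single genes show the forms this took. IER3 differed from control by 1.11 at 100 and by less than 0.01 at 10 ug/ml (adjusted p = 5.54e-09 and 0.983), and ABCC3 by 0.89 and 0.07 (adjusted p = 1.42e-10 and 0.439). JUNB, in contrast, had its lowest levels at 10 ug/ml: its control arrays read 6.59, 6.60 and 6.80, so that it differed from control by -0.38 at 10 and 0.35 at 100 ug/ml (adjusted p = 0.0576 and 0.0498). SPRY2 likewise differed by -0.24 and 0.28 (adjusted p = 0.0828 and 0.0304). ANO2 stepped down at each dose, by 0.27 at 10 and 0.80 at 100 ug/ml from control arrays of 7.59, 7.36 and 7.43 (adjusted p = 0.0224 and 2.45e-08). MMP28 fell by 0.34 and 0.86 from control (adjusted p = 0.0371 and 5.36e-06). CDKN1C differed by -0.02 at 10 and -0.41 at 100 ug/ml (adjusted p = 0.852 and 0.000117).

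At 1 h, 35 genes (0.293%) were called between the TiO2-NB doses, 32 higher (0.267%) and 3 lower (0.0251%) at 100 ug/ml. Over the 80 genes higher at 24 h the median difference at 1 h was 0.02, and over the 38 lower it was -0.01. The change of the dose difference from 1 to 24 h was tested gene by gene and was called for 37 genes (0.309%), 20 upwards (0.167%) and 17 downwards (0.142%). Of the 37, 16 were among the 80 genes and 6 among the 38. The 24 h dose difference that chose those genes is part of the tested change, so no agreement is read from this overlap. ETV5 had the largest upward change among the genes named for this test: its dose difference was 0.01 ± 0.10 at 1 h and 1.06 ± 0.10 at 24 h, a change of 1.05 ± 0.14 (adjusted p = 0.000165). SPRED2 changed by 0.93 ± 0.12, ABCC3 by 0.81 ± 0.08 and IER3 by 0.78 ± 0.12 (adjusted p = 0.000156, 1.73e-06 and 0.00103). Levels at 1 h were high at both doses for some of these genes: IER3 stood at 11.67 ± 0.07 at 10 ug/ml (SD, n = 3), 0.32 ± 0.08 (SE) higher at 100 ug/ml, and at 11.61 ± 0.05 in the 1 h control. DUSP6 stood at 10.66 ± 0.08, 10.83 ± 0.03 and 10.71 ± 0.21 at 10 ug/ml, 100 ug/ml and in the control, and at 5.81 ± 0.02, 6.72 ± 0.23 and 6.01 ± 0.16 at 24 h. The test did not pass for DUSP6 (0.74 ± 0.19, adjusted p = 0.117) or for KRT8 (-0.54 ± 0.17, adjusted p = 0.351).

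Carbon nanotubes, the other fibrous particle of the study, gave 0 genes called between 100 and 10 ug/ml at 24 h with limma (268 at an unadjusted p under 0.05, smallest adjusted p 0.871). Whether the dose difference itself differed between the particles was tested: 34 genes (0.284%) passed, 32 upwards for TiO2-NB (0.267%) and 2 downwards (0.0167%). All 32 were among the 80 genes and both of the 2, ANO2 and CDKN1C, among the 38. The test contains the TiO2-NB dose difference that chose those genes, so the overlap is partly built in and no agreement is read from it. IER3 stood at 7.53 ± 0.05 with 10 and 7.29 ± 0.20 with 100 ug/ml MWCNT, a difference of -0.25 ± 0.08, against 1.10 ± 0.08 with TiO2-NB (difference of differences 1.35 ± 0.12, adjusted p = 1.25e-07). For DUSP6 the dose differences were -0.36 ± 0.13 with MWCNT and 0.91 ± 0.13 with TiO2-NB (1.27 ± 0.19, adjusted p = 0.000706). ABCC3 differed by -0.10 ± 0.05 and 0.82 ± 0.05 (0.92 ± 0.08, adjusted p = 1.12e-07). ANO2 differed by 0.04 ± 0.06 and -0.53 ± 0.06 (-0.57 ± 0.09, adjusted p = 0.00207). For JUN and KRT8 the test did not pass, with differences of 0.41 ± 0.17 and -0.46 ± 0.17 (adjusted p = 0.743 and 0.609). The doses are matched by mass, and surface area and number of particles are not given in the labels.

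**Figure D5:**
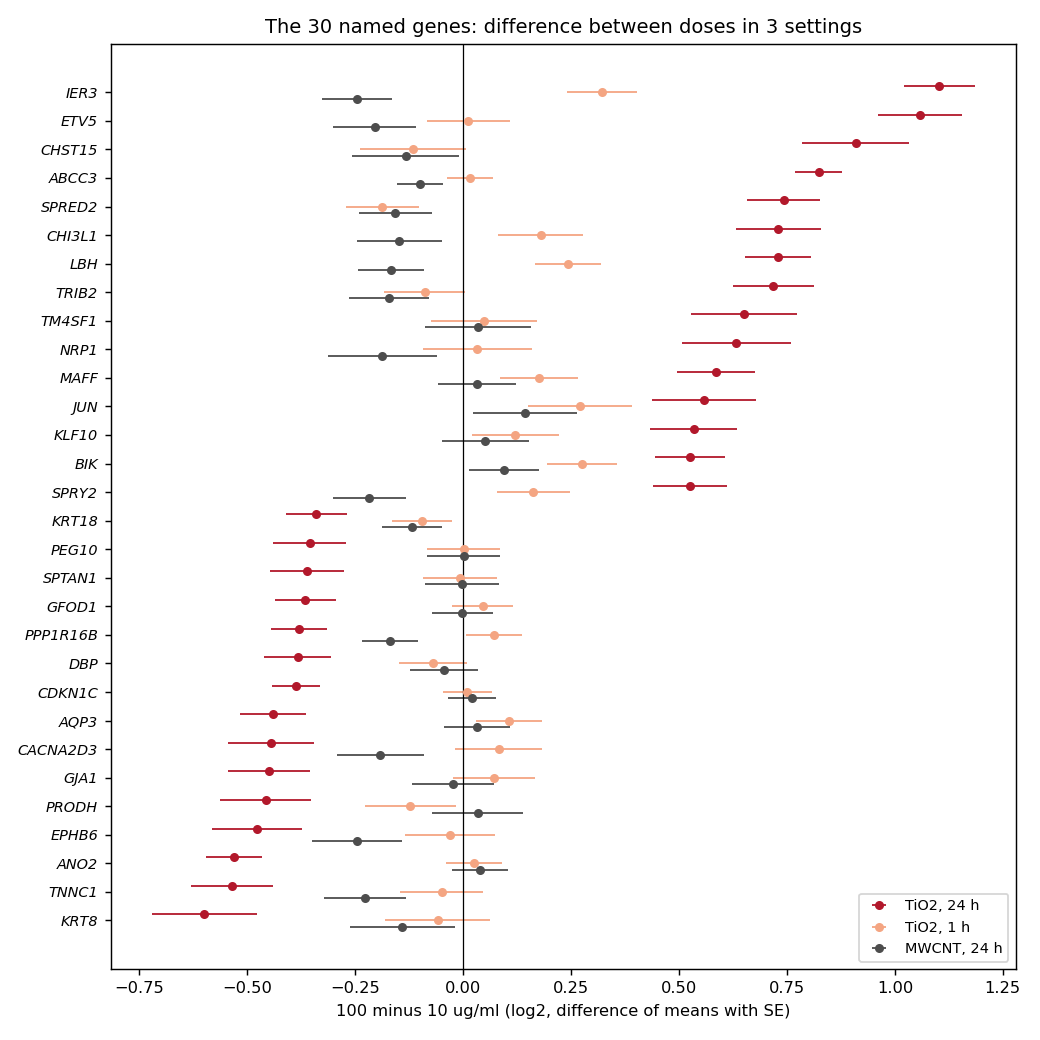
Difference of means, 100 minus 10 ug/ml (log2, x axis), with its SE for the 15 higher and 15 lower genes named by size (y axis): red, TiO2-NB at 24 h; light, TiO2-NB at 1 h; dark, MWCNT at 24 h. The red points chose the genes; the light and dark points lie closer to 0 than the red point in each of them, with IER3 at 0.32 for TiO2-NB at 1 h and -0.25 for MWCNT.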

How the data were processed

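Total RNA of the SAE cultures was labelled and hybridised to Affymetrix arrays, 30 in 10 groups of 3. The deposited values are log2 expression per probe set, made by the authors with RMA, per the submitters' processing notes. RMA subtracts background, brings all arrays to 1 distribution and combines the probes of a set, which can shrink small differences and removes shifts common to most genes. No further normalisation was applied, and 0 columns of the table were left unmapped to samples.

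The table held 22277 probe sets, 62 of them array controls. The platform annotation gave 1 symbol to 19064, several to 1043 and none to 2108. Each of the 11963 genes was represented by its probe set with the highest mean over the 30 arrays. One mean per group was fitted to all 30 arrays with limma 3.58.1 (R 4.3.3, statmod 1.5.0), using moderated variances. Tests were two-sided, with p values adjusted after Benjamini and Hochberg over all genes, threshold 0.05. The number of arrays limits the precision. The code was tested on simulated data. Python 3.11.15, pandas 2.3.3 and matplotlib 3.10.9 served for summaries and figures.

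Genes were named by rule: up to 15 higher and 15 lower by size that were called, did not overlap and had a higher-group mean above the table's median, and up to 6 called members per direction of each of 43 lists, or its largest mover if no member was called. Up to 5 called genes per direction were named for each test of a difference of dose effects, under the same filter on overlap and level at 24 h. Members and lists were chosen with earlier results of these data known. The comparison of the doses, both doses against control, and the tests of the dose effect between times and particles were run. Alternatives were a filter on dim genes (6923 left), the compared groups alone, a replicate block, cyclic loess, array weights, the mean of all probe sets, an intensity trend and leaving out each array.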

Additional observations from a re-analysis of the deposited data

Results flagged for a closer look

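The change of the dose difference of TiO2-NB from 1 to 24 h passed the test of the difference for 37 genes. The change was 1.05 for ETV5, 1.03 for CHST15, 0.93 for SPRED2, 0.81 for ABCC3 and 0.81 for TRIB2. It was -0.71 for SGK1, -0.56 for ANO2, -0.55 for AQP3, -0.51 for SRF and -0.45 for PPP1R16B. The genes given here also did not overlap between the doses at 24 h and had a higher-group mean above the table's median. Outside that filter FILIP1L (-1.20), FOSB (-1.14), EGR3 (-1.13), NR4A1 (-1.07), CITED2 (-0.96) and MMP28 (-0.77) changed more downwards, and HES1 changed by 0.82. EGR3, NR4A1 and FOSB were called between the doses at 1 h (1.26, 1.08 and 0.85) and not at 24 h (0.13, 0.01 and -0.30). SRF, the serum response factor, was itself not called between the doses at 24 h (-0.11, adjusted p = 0.537) and was called at 1 h (0.40, adjusted p = 0.00141). SGK1, a kinase induced by serum and glucocorticoids, differed by 0.36 at 1 h and -0.34 at 24 h, neither called (adjusted p = 0.23 and 0.126).

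The dose difference at 24 h itself differed between TiO2-NB and MWCNT for 34 genes. The difference of differences was 1.35 for IER3, 1.26 for ETV5, 1.04 for CHST15, 0.92 for ABCC3 and 0.90 for SPRED2, and it was -0.57 for ANO2 and -0.41 for CDKN1C. These genes passed the same filter, and outside it the value was 1.27 for DUSP6, 1.07 for HES1 and 0.97 for JUNB.

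Among the 3151 probe sets with several symbols or none, which the gene comparison left out, 19 were called between the doses (7 higher, 12 lower at 100 ug/ml) when all 22215 probe sets were tested together, which gave 162 calls in all.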

How the results depend on the processing

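No named gene turned direction between the doses under any alternative run for it. The majority of calls against control did turn from lower to higher: at 100 ug/ml with cyclic loess (449 higher, 366 lower) and with only the compared groups (11 and 5). At 10 ug/ml it turned with cyclic loess (103 and 56), without control replicate 1 (56 and 18) and without replicate 1 of that dose (127 and 116), and it was even without replicate 3 (41 and 41). For the comparison of the doses, 118 genes (80 higher, 38 lower) became 30 (25 and 5) when the fit held the compared groups alone and 283 (162 and 121) with array weights. Dropping dim genes gave 65 lower. Without 1 of the arrays there were 68 to 135 in all, 47 to 100 higher and 19 to 35 lower. Of 964 alternative values of named genes, 833 kept their side of the threshold, 115 lost the call and 16 gained one. Of the 50 called named genes 15 kept the call in each alternative run for them, though ETV5, CHI3L1 and TRIB2 fell below the filter on dim genes and were not tested under it. CHST15, LBH, SPRY2, TNNC1, ANO2, AQP3, CDKN1C, TIPARP, CCN2, ITGB5 and MMP28 lost the call only when the fit held the compared groups alone. The counts against control were 1577 at 100 and 724 at 10 ug/ml. They became 16 and 0 with only the compared groups, 815 and 159 with cyclic loess, and 3081 and 2170 with array weights. Leaving out 1 array gave 718 to 1513 and 74 to 956. The change between times (37 genes) became 20 with only the compared groups, 106 with array weights and 21 to 37 with 1 array left out. The difference between particles (34 genes) became 17, 115 and 21 to 43. Same-numbered arrays of the doses at 24 h did not deviate together (correlations -0.11, 0.01 and -0.04). These correlations cover the compared arrays alone and cannot settle whether a replicate number links arrays across the groups. With the replicate number as a block the dose count was 111, of which 109 were shared, the counts against control 1510 and 643, and the tests of a difference 33 and 32. The median of all genes was -0.01 as deposited and less than 0.01 with cyclic loess. Small differences of dim probe sets cannot be resolved with 3 arrays a group.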

Other observations

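The following genes were chosen after their values were seen. Further genes of cell surface and matrix were higher at 100 than at 10 ug/ml: CD44, the hyaluronan receptor, by 0.50 (adjusted p = 0.0059), LOX, which crosslinks collagen, by 0.39 (adjusted p = 0.00203), PROCR, the receptor of activated protein C, by 0.40 (adjusted p = 0.00979), and SDC4, a heparan sulfate proteoglycan, by 0.23 (adjusted p = 0.0259). TNFRSF12A, the receptor of the cytokine TWEAK, measured 10.40, 10.24 and 10.27 at 10 ug/ml and 10.83, 10.81 and 10.64 at 100 ug/ml (0.45 ± 0.09, adjusted p = 0.00662). VGLL4, a cofactor of TEAD factors, had one of the smallest p values: 9.06, 9.04 and 8.97 against 9.52, 9.55 and 9.50 (0.50 ± 0.05, adjusted p = 2.54e-06). The ETS family factors FLI1, dim on this array, and ELK3 were higher by 0.77 and 0.42 (adjusted p = 0.000495 and 0.0478).

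On the lower side, AHNAK and its relative AHNAK2, very large scaffold proteins, fell by 0.28 and 0.26 (adjusted p = 0.0104 and 0.018). The focal adhesion protein TNS3 fell by 0.32 and the actin-binding synaptopodin, SYNPO, by 0.32 (adjusted p = 0.000495 and 0.00695). STOM, stomatin of the plasma membrane, measured 12.26, 12.27 and 12.24 at 10 ug/ml and 12.08, 12.05 and 12.01 at 100 ug/ml (-0.21 ± 0.04, adjusted p = 0.00179). GALNT7, IGF1R, TOP1 and MMD were higher at 100 than at 10 ug/ml, and were the 4 genes of the 80 called lower than control at 10 ug/ml, by -0.31, -0.22, -0.19 and -0.15.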
